A study of Homo sapiens with 9 samples.

Results

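The 30 genes described here make up a set of ligands, receptors, SMAD proteins, inhibitors and target genes of transforming growth factor beta (TGF-β) and bone morphogenetic protein (BMP) signalling. The members were given as a list of symbols and matched to the gene identifiers of the count table through GENCODE, without the version suffix. All 30 were found among the 60649 identifiers of the table, and all 30 passed the filter on low counts that left 19674 genes for testing. RNA sequencing was performed on OVCAR5, an established human epithelial cancer cell line that the study used as an ovarian cancer model. There were 9 libraries in 3 groups of 3, labelled NC, SM2 and SM4. Per the labels, NC is the parental control and SM2 and SM4 carry a knockdown of METTL3, the catalytic subunit of the complex that writes N6-methyladenosine on messenger RNA. The treatment field gives lentiviral transduction and puromycin selection for every library, the controls included. For the 3 SM4 libraries the source field names OVCAR6, OVCAR7 and OVCAR8, although their cell line is given as OVCAR5 like that of the other libraries. The study used a pair of short hairpin RNAs against METTL3, but the labels do not say which of them SM2 or SM4 carries, whether the lines were pools or clones, or whether the 3 libraries of a group came from separate cultures. P-values therefore measure the spread between these libraries, which may be technical. A comparison written as SM2 against NC means the libraries labelled SM2 against the libraries labelled NC, and the other comparisons are written alike.

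As background, TGF-β ligands are secreted in a latent form that is held in the extracellular matrix by latent TGF-β binding proteins and released by activators such as thrombospondin 1. The active ligand joins a type II and a type I receptor kinase, which phosphorylate SMAD2 and SMAD3 in the TGF-β and activin branch, or SMAD1, SMAD5 and SMAD9 in the BMP branch. These join SMAD4, enter the nucleus and change transcription, and several of the induced genes encode inhibitors that close a negative feedback loop. In epithelial cells the pathway is known for growth arrest and for epithelial-mesenchymal transition.

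Library totals ranged from 44103272 to 63693728 counts, so that a level of 1 CPM, counts scaled to the library total and normalized, stood for 44.1 to 63.7 counts. The members had between 71 and 65717 counts in any library. METTL3, the targeted gene, was at 36.2, 34.4 and 36.6 CPM in the libraries labelled NC, 37.04, 39.8 and 39.99 CPM in those labelled SM2 and 60.5, 57.5 and 62.4 CPM in those labelled SM4. Its log2 fold change was 0.12 (q = 0.12) in SM2 against NC and 0.75 (q = 2.21e-09) in SM4 against NC, where q is the adjusted p of the quasi-likelihood test of edgeR over all genes tested, so the transcript level went against the label of SM4 and was not lowered in SM2. Each direction below rests on the labels, and the counts alone do not settle which group is the control. The study lists METTL3 as lowered and the genes NOG and CCN2 as raised by both hairpins against its hairpin control. In these counts those directions appear together only with SM4 as the reference. The libraries labelled SM4 may therefore be the study's hairpin control, and those labelled NC and SM2 its knockdowns, although the labels say otherwise. The comparisons below still follow the labels. The libraries labelled SM4 had the highest METTL3 level, and relative to them its log2 fold change was -0.75 (q = 2.21e-09) in NC and -0.63 (q = 7.45e-08) in SM2. Directions with SM4 as the reference are therefore given beside the main results for the set and for some of the genes. SM2 replicate 3 stood apart from the other libraries of its group, with a chi-square of 13.4 and 16.1 per degree of freedom against them, where the 7 other replicate pairs gave 4.16 to 6.01. The 6 epithelial markers (EPCAM, CDH1, KRT8, KRT18, KRT19 and CLDN4) lay between 293 and 5985 CPM in every library. Of 13 markers of fibroblasts, endothelium and leukocytes, 10 stayed at or below 0.380 CPM in every library, and KDR had 0 counts. COL1A1 was at 22.9 to 24.1 CPM in the group means. PECAM1 and CD14 moved with the groups, at 5.47, 8.23 and 13.7 CPM and at 5.76, 8.47 and 10.3 CPM in NC, SM2 and SM4. The summed level of the 4 endothelial markers was 5.41 to 5.85 CPM in NC, 7.79 to 8.90 CPM in SM2 and 13.1 to 15.2 CPM in SM4, and that of the 4 leukocyte markers was 5.31 to 6.32, 7.98 to 8.86 and 9.85 to 10.6 CPM. The 5 fibroblast markers summed to 21.3 to 24.9 CPM in NC, 22.6 to 26.5 CPM in SM2 and 21.7 to 24.6 CPM in SM4. Their part in the results was not tested. In bulk RNA, fewer cells of a type and less RNA per cell cannot be told apart.

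The first question was which members differed between the libraries labelled as METTL3 knockdown and the control. In SM2 against NC, 14 of the 30 members (46.7%) were called at an adjusted p (q) below 0.05, 6 higher and 8 lower, where 22.3% of all genes tested were called, 12% higher and 10.3% lower. In SM4 against NC, 13 members (43.3%) were called, 4 higher and 9 lower, where 21.2% of all genes tested were called, 11% higher and 10.2% lower. Calls depend on depth. Among the 12541 genes with a mean CPM at least that of the lowest member, 30.6% were called in SM2 and 29.1% in SM4. The median log2 fold change over the members was -0.069 in SM2 and -0.087 in SM4, where that over all genes tested was -0.0037 and -0.0011. The libraries of the groups did not overlap for 19 members in SM2 and 20 in SM4, where this held for 35.2% and 38.4% of all genes tested. Most changes were small. A called change of at least 0.5 on the log2 scale was found in 3 members in SM2 (all genes, 6.19%) and 4 in SM4 (all genes, 6.17%). Without NC replicate 1 the number of members called in SM2 against NC fell to 9, and without SM2 replicate 3 it was 12. In SM4 against NC the lowest number was 10, without NC replicate 2, SM4 replicate 2 or SM4 replicate 3, and the highest was 18, without SM2 replicate 3.

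**Figure D1:**
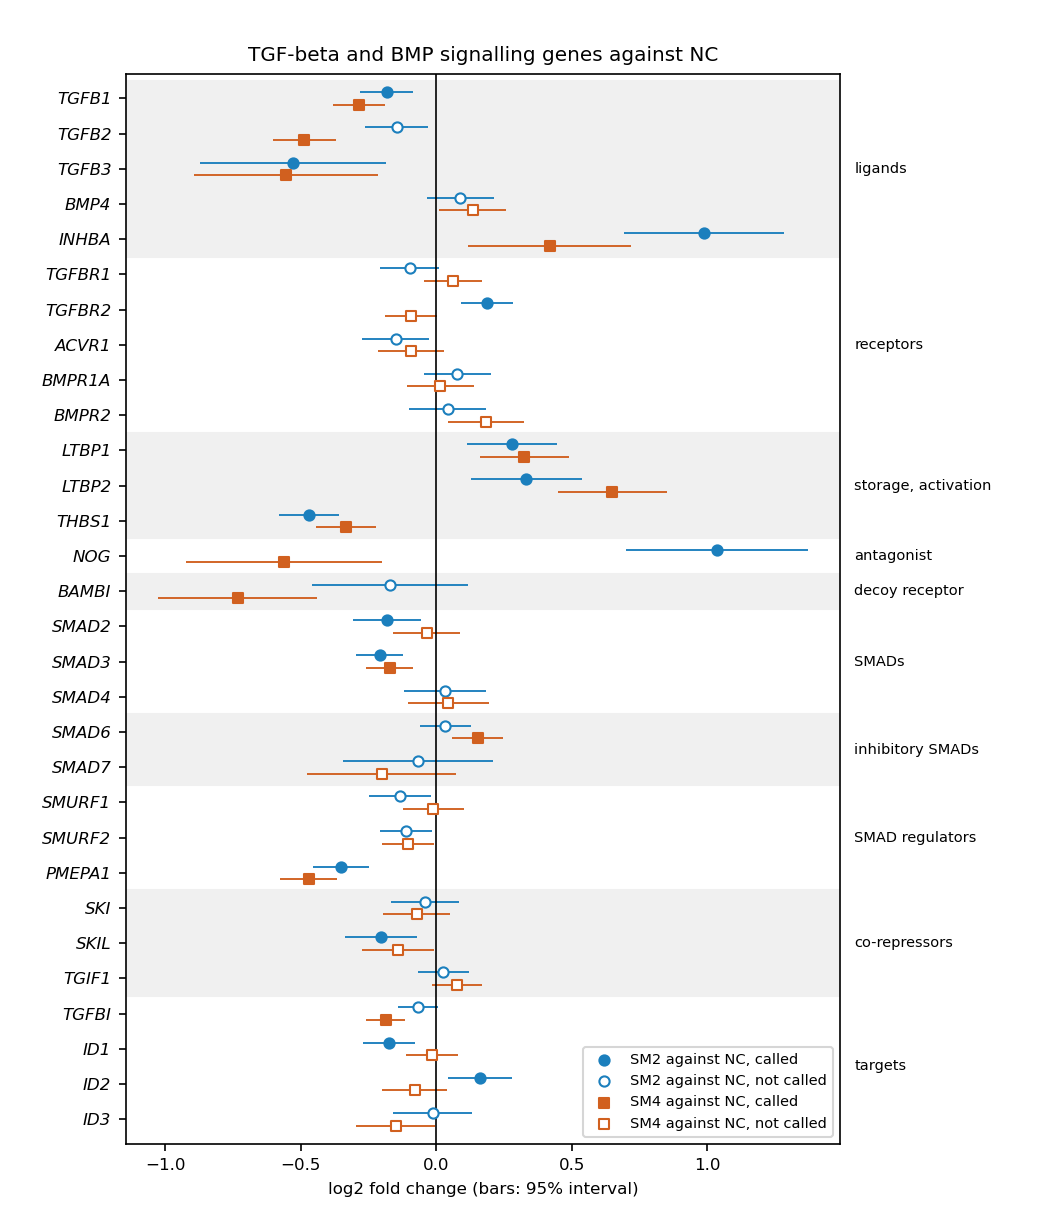
Log2 fold change of each of the 30 members in SM2 against NC (circles) and SM4 against NC (squares), ordered by role, with bars for the 95% interval and filled symbols for an adjusted p below 0.05. TGFB1, TGFB3, THBS1, SMAD3 and PMEPA1 lie left of 0 and INHBA, LTBP1 and LTBP2 right of 0 with filled symbols in both comparisons, and NOG lies on opposite sides.

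Both comparisons use the same NC libraries. Called in both were 9 members, 3 of them higher in both (INHBA, LTBP1 and LTBP2), 5 lower in both (TGFB1, TGFB3, THBS1, SMAD3 and PMEPA1) and 1 in opposite directions (NOG). Of all genes tested, 12.2% were called in both, 11.7% in the same direction and 0.447% in opposite directions. A further 5 members (16.7%) were called in SM2 alone (TGFBR2, SMAD2, SKIL, ID1 and ID2) and 4 (13.3%) in SM4 alone (TGFB2, BAMBI, SMAD6 and TGFBI). Of all genes tested, 22.3% were called in SM2 and 21.2% in SM4, and both shares include the 12.2% called in both. The remaining 12 members were called in neither comparison with NC, as were 68.7% of all genes tested. With SM4 as the reference, 9 members were higher and 4 lower in NC, and 7 were higher and 3 lower in SM2. Called in both of these were 6 members, of which TGFB2, NOG, BAMBI and TGFBI were higher in both, LTBP2 was lower in both, and INHBA was lower in NC and higher in SM2. Relative to SM4, TGFB1, TGFB3, THBS1, SMAD3 and PMEPA1 were called higher in NC but were not called in SM2. Their log2 fold changes in SM2 were 0.10 (q = 0.17), 0.028 (q = 0.946), -0.14 (q = 0.0977), -0.037 (q = 0.635) and 0.12 (q = 0.136). LTBP1 was called lower in NC and was -0.047 (q = 0.77) in SM2. Of all genes tested, 6.59% were called in both, 5.59% in the same direction and 1% in opposite directions. Both comparisons with SM4 share its libraries.

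Promoter windows, from 250 bases before to 50 bases after a transcript start, were available from RefSeq for 28 of the 30 members (GRCh38.p14). NOG and SKI had no window. The window nearest to the start of the GENCODE gene was used for each. The windows of 4 members are shown as examples, INHBA, BAMBI and PMEPA1 from the called members and SMAD6 for its palindromic SMAD motif. TGFB2, TGFB3 and LTBP2, with larger called changes than PMEPA1, also had windows, which are not shown. They are written 5′ to 3′ on the strand of the gene. Capitals mark the motifs searched on both strands. These were GGCGCC (a GC-rich SMAD motif), GTCTAGAC (the palindromic SMAD motif) and CAGAC (a shorter motif, GTCTG on the other strand). The palindromic motif does not contain the shorter motif on either strand.
INHBA (chr7:41703041-41703340, minus strand): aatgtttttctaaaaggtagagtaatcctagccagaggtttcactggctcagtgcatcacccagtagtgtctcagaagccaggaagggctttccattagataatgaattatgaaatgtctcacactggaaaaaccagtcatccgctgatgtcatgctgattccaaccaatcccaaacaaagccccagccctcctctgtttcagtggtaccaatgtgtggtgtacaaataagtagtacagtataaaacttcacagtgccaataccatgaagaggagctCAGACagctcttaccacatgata
BAMBI (chr10:28677271-28677570, plus strand): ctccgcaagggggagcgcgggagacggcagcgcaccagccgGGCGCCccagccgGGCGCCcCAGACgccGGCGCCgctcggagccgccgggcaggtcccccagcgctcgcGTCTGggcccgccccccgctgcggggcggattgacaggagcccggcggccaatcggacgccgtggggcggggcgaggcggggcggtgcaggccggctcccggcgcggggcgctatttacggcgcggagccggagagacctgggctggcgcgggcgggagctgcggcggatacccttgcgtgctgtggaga
PMEPA1 (chr20:57711423-57711722, minus strand): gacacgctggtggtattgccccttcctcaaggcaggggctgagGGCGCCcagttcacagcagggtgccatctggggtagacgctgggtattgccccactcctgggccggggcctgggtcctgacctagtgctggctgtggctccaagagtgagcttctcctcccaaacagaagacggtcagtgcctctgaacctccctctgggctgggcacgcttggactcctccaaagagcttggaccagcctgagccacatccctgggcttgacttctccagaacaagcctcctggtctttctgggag
SMAD6 (chr15:66701986-66702285, plus strand): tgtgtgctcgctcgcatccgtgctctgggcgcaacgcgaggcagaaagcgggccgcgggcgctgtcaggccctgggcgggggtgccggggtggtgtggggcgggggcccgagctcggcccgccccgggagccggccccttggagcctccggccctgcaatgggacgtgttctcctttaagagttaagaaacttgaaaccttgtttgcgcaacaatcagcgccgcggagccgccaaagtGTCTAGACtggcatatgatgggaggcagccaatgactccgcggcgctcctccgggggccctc
GGCGCC was found in the windows of 11 of the 28 members (39.3%), where 19.2% of all 35116 RefSeq windows hold it. CAGAC was found in 18 of 28 (64.3%), where 45.3% of all windows hold it, and GTCTAGAC in SMAD6 alone (3.57%), where 0.202% of all windows hold it. The BAMBI window held GGCGCC 3 times and CAGAC 2 times, the INHBA window held CAGAC 1 time, and the PMEPA1 window held GGCGCC 1 time. Each member entered with 1 window, while the share of all windows counts a gene once for each of its windows, so the shares are not in like units. These matches describe the letters and not the binding of a factor.

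Among the ligands, TGFB1 and TGFB3 fell in both comparisons and TGFB2 fell in SM4, while the activin gene INHBA rose in both and BMP4 was not called, all relative to the libraries labelled NC. Relative to those labelled SM4, TGFB1 was 0.29 (q = 0.000102) in NC and 0.10 (q = 0.17) in SM2 on the log2 scale, TGFB2 was 0.49 (q = 1.6e-06) and 0.34 (q = 0.000237), and INHBA was -0.42 (q = 0.0429) and 0.57 (q = 0.00742), so INHBA then moved in opposite directions. TGFB1 (ENSG00000105329.11, chromosome 19, 41301587 to 41353922, GRCh38 as are all coordinates here), the most widely expressed TGF-β ligand, was at 101, 98.3 and 101 CPM in the libraries labelled NC, 87.1, 91.9 and 85.3 CPM in those labelled SM2 and 78.9, 84.4 and 82.9 CPM in those labelled SM4. Every SM2 and SM4 library lay below every NC library. The log2 fold change was -0.18 (SE 0.0463, q = 0.0061) in SM2 and -0.29 (SE 0.0462, q = 0.000102) in SM4. HNRNPUL1, at 387 to 415 CPM in the group means, shares 215 exonic bases with TGFB1 on the other strand and was called in neither comparison with NC, and whether reads were counted by strand is not stated. TGFB2 (ENSG00000092969.12, chromosome 1, 218345336 to 218444619), a TGF-β ligand that needs the co-receptor betaglycan for tight receptor binding, was at 75.7, 74.3 and 75.2 CPM in the libraries labelled NC, 71.8, 70.3 and 61.5 CPM in those labelled SM2 and 53.9, 55.5 and 51.2 CPM in those labelled SM4. All SM4 libraries lay below all SM2 libraries, and these below all NC libraries. TGFB2 fell by 0.49 on the log2 scale in SM4 against NC (SE 0.0560, q = 1.6e-06), and its log2 fold change in SM2 was -0.15 (q = 0.0657), which was called if SM2 replicate 1 was left out (log2 fold change then -0.19) and with the replicate block, and was -0.078 without SM2 replicate 3. TGFB3 (ENSG00000119699.8, chromosome 14, 75958097 to 75983011), the least abundant of the 3, was at 3.19, 2.94 and 3.30 CPM in the libraries labelled NC, 2.14, 2.22 and 2.17 CPM in those labelled SM2 and 1.94, 1.82 and 2.69 CPM in those labelled SM4. Both knockdown-labelled groups lay below NC without overlap, and SM4 replicate 3 was the highest of the 6. TGFB3 changed by -0.53 (SE 0.164, q = 0.0241) in SM2 and -0.56 (SE 0.162, q = 0.0173) in SM4 on the log2 scale. The SM2 call was lost if NC replicate 1 or 3 or SM2 replicate 1 or 2 was left out (log2 fold change then -0.55 to -0.49), and the SM4 call was lost if NC replicate 3 or SM4 replicate 1 or 2 was left out (log2 fold change then -0.52 to -0.45).

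INHBA (ENSG00000122641.11, chromosome 7, 41667168 to 41705834) encodes the beta A subunit of activin A, a ligand that signals through SMAD2 and SMAD3. Its level was 2.87, 2.10 and 2.92 CPM in the libraries labelled NC, 5.27, 5.32 and 5.02 CPM in those labelled SM2 and 3.17, 3.65 and 3.70 CPM in those labelled SM4. The SM2 libraries were the highest, the SM4 libraries lay between SM2 and NC, and the 3 groups did not overlap. The log2 fold change was 0.99 (SE 0.142, q = 2.83e-05) in SM2 and 0.42 (SE 0.143, q = 0.0429) in SM4. The SM4 call was lost if NC replicate 2, SM2 replicate 2 or SM4 replicate 2 or 3 was left out (log2 fold change then 0.27 to 0.42), with no filter on low counts and in DESeq2. INHBA-AS1, which shares 248 exonic bases with INHBA on the other strand, was at 0.176, 0.416 and 0.292 CPM in the group means and was not called. The INHBA window, shown above, held its only match, CAGAC, after the transcript start. BMP4 (ENSG00000125378.16, chromosome 14, 53949736 to 53958761), a ligand of the BMP branch, was at 33.3 ± 0.969, 35.4 ± 1.75 and 36.5 ± 2.03 CPM (SD, n = 3) in NC, SM2 and SM4. It was called in neither comparison, with log2 fold changes of 0.087 (q = 0.335) and 0.13 (q = 0.12) and 95% intervals of -0.036 to 0.21 and 0.011 to 0.26.

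**Figure D2:**
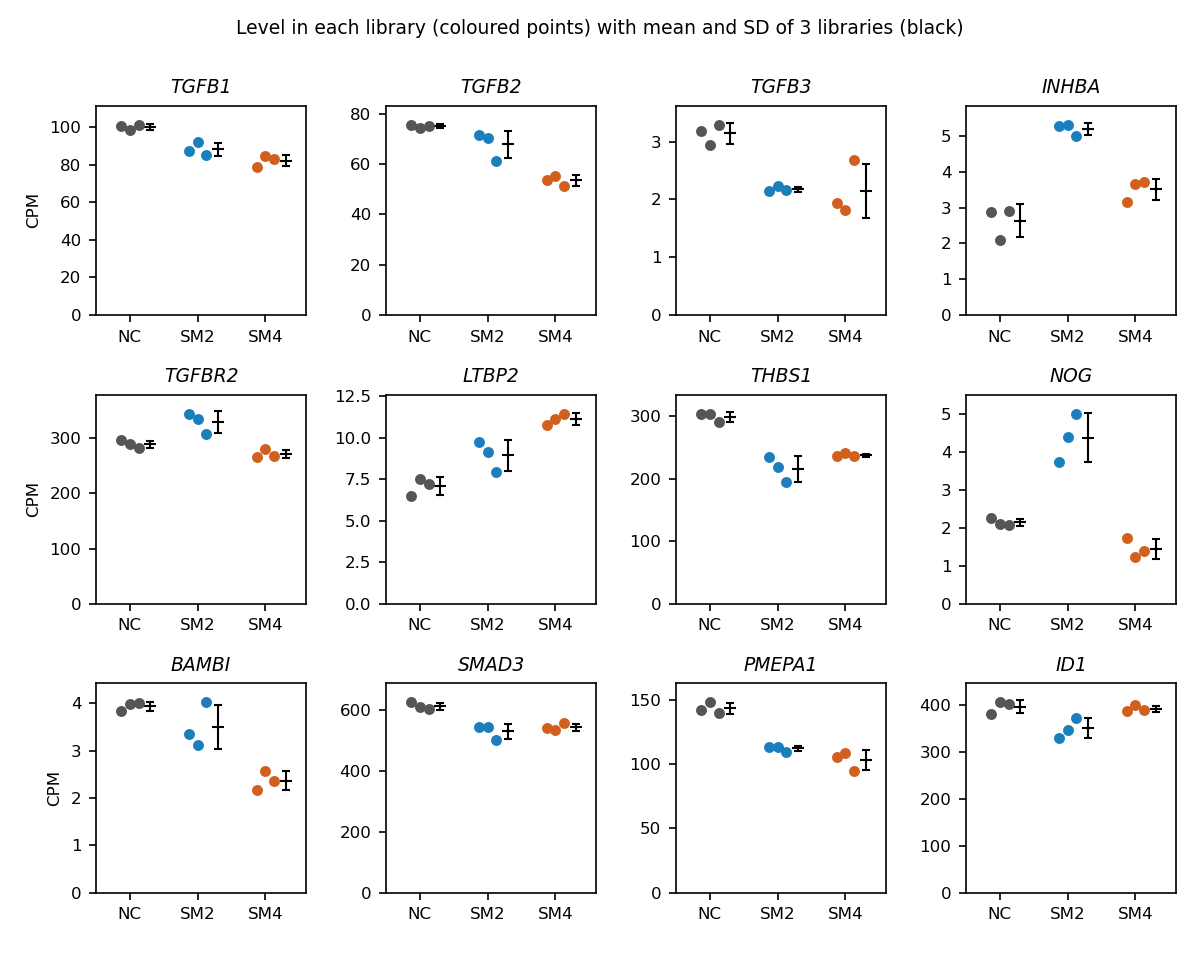
CPM of 12 members in each library (coloured points, vertical axis from 0) by label, with the mean and SD of 3 libraries in black. TGFB1, TGFB2, TGFB3, THBS1, SMAD3 and PMEPA1 have every SM2 and SM4 point below every NC point, INHBA and LTBP2 have every such point above, and NOG is above NC in SM2 and below NC in SM4.

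The genes of matrix storage and activation were called in both comparisons, with LTBP1 and LTBP2 higher and THBS1 lower. LTBP1 (ENSG00000049323.16, chromosome 2, 32946953 to 33399509), which tethers latent TGF-β to the matrix, was at 10.9, 9.50 and 10.5 CPM in the libraries labelled NC, 12.5, 12.5 and 12.4 CPM in those labelled SM2 and 13.2, 12.6 and 12.8 CPM in those labelled SM4. Every SM2 and SM4 library lay above every NC library. It rose by 0.28 (SE 0.0795, q = 0.0149) in SM2 and 0.32 (SE 0.0786, q = 0.00473) in SM4 on the log2 scale, and the SM2 call was lost if NC replicate 2 was left out (log2 fold change then 0.22). LTBP2 (ENSG00000119681.12, chromosome 14, 74498183 to 74612378), a family member of elastic fibres that does not bind latent TGF-β itself, was at 6.48, 7.52 and 7.24 CPM in the libraries labelled NC, 9.78, 9.13 and 7.92 CPM in those labelled SM2 and 10.8, 11.1 and 11.5 CPM in those labelled SM4. The 3 groups did not overlap, with SM4 the highest. On the log2 scale it rose by 0.33 (SE 0.0980, q = 0.0177) in SM2 and 0.65 (SE 0.0959, q = 3.63e-05) in SM4. The SM2 call was lost if NC replicate 1 or SM2 replicate 1 or 2 was left out (log2 fold change then 0.26 to 0.31), and the SM4 call was kept in all 14 alternatives. THBS1 (ENSG00000137801.11, chromosome 15, 39581079 to 39599466), which encodes thrombospondin 1, was at 304, 304 and 289.9 CPM in the libraries labelled NC, 235, 218 and 194 CPM in those labelled SM2 and 236, 240.1 and 236 CPM in those labelled SM4. All 6 of the SM2 and SM4 libraries lay below the lowest NC library. The log2 difference from NC was -0.47 (SE 0.0532, q = 1.47e-06) in SM2 and -0.33 (SE 0.0530, q = 8.7e-05) in SM4, and both calls were kept in all 14 alternatives.

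NOG was the member with the largest effect in SM2 against NC and, relative to the libraries labelled NC, the one called in opposite directions in SM2 and SM4. Relative to the libraries labelled SM4, whose label METTL3 went against, NOG was higher in both other groups, by 0.56 (q = 0.0233) in NC and 1.60 (q = 8.6e-07) in SM2 on the log2 scale. NOG (ENSG00000183691.6, chromosome 17, 56593699 to 56595611) encodes noggin, a secreted antagonist that binds BMP ligands. Its level was 2.26, 2.11 and 2.07 CPM in the libraries labelled NC, 3.74, 4.39 and 5.02 CPM in those labelled SM2 and 1.73, 1.23 and 1.38 CPM in those labelled SM4, from 71 to 266 counts per library. The SM2 libraries lay above and the SM4 libraries below every NC library. NOG rose by 1.03 (SE 0.161, q = 7.01e-05) on the log2 scale in SM2 and fell by 0.56 in SM4 (SE 0.173, q = 0.0233). The SM2 call was kept in all 14 alternatives, while the SM4 call was lost if NC replicate 1 or 2 or SM4 replicate 2 or 3 was left out (log2 fold change then -0.58 to -0.46). BAMBI (ENSG00000095739.11, chromosome 10, 28677510 to 28682932), a membrane protein that resembles a type I receptor but lacks the kinase domain, was at 3.83, 3.99 and 3.996 CPM in the libraries labelled NC, 3.35, 3.12 and 4.02 CPM in those labelled SM2 and 2.17, 2.58 and 2.36 CPM in those labelled SM4. The SM4 libraries were the 3 lowest, and SM2 replicate 3 was the highest of all 9. BAMBI had a log2 fold change of -0.73 (SE 0.140, q = 0.000586) in SM4, kept in all 14 alternatives, and -0.17 (q = 0.428) in SM2, with a 95% interval of -0.46 to 0.12. Its promoter window, shown above, was the richest in GGCGCC among the members.

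Of the 5 receptors, TGFBR2 was called in SM2 and none was called in SM4 against NC. TGFBR2 (ENSG00000163513.19, chromosome 3, 30606601 to 30694142), the type II receptor that binds TGF-β, was at 296, 289 and 282 CPM in the libraries labelled NC, 345, 335 and 307 CPM in those labelled SM2 and 266, 279.7 and 268 CPM in those labelled SM4. The SM2 libraries were the 3 highest and the SM4 libraries the 3 lowest. The difference from NC on the log2 scale was 0.19 (SE 0.0458, q = 0.00509) in SM2 and -0.093 (q = 0.172) in SM4, where it was called if SM2 replicate 3 was left out (log2 fold change then -0.097). TGFBR1 (ENSG00000106799.13, chromosome 9, 99104038 to 99154192), the type I receptor kinase of TGF-β, was at 48.3, 48.2 and 47.8 CPM in the libraries labelled NC, 46.6, 45.99 and 42.2 CPM in those labelled SM2 and 49.3, 50.97 and 50.3 CPM in those labelled SM4. SM2 lay below NC and SM4 above it without overlap, by -0.099 (q = 0.193) and 0.061 (q = 0.465), and neither was called. The receptors that bind BMP ligands were not called. ACVR1 was at 35.9 ± 1.61, 32.4 ± 0.826 and 33.6 ± 1.999 CPM in NC, SM2 and SM4, with log2 fold changes of -0.15 (q = 0.0779) and -0.094 (q = 0.299). BMPR1A was at 29.8 ± 0.487, 31.5 ± 1.63 and 30.1 ± 1.42 CPM, with 0.077 (q = 0.41) and 0.014 (q = 0.907). BMPR2, the type II BMP receptor, was at 99.6 ± 5.84, 103 ± 12.1 and 113 ± 6.69 CPM, with 0.042 (q = 0.733) and 0.18 (q = 0.062). BMPR2 was called in SM2 if SM2 replicate 3 was left out (log2 fold change then 0.14), and in SM4 if SM2 replicate 1, 2 or 3 was left out (log2 fold change then 0.18 each time), with upper-quartile normalization, with no filter and with the replicate block.

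Among the SMADs, SMAD3 was lower in both comparisons and SMAD4 in neither. SMAD3 (ENSG00000166949.17, chromosome 15, 67063763 to 67195173), a transcription factor phosphorylated by the TGF-β and activin receptors, was at 625, 612 and 603 CPM in the libraries labelled NC, 544, 544 and 503 CPM in those labelled SM2 and 541, 534 and 557 CPM in those labelled SM4. All SM2 and SM4 libraries lay below all NC libraries. SMAD3 had log2 fold changes of -0.21 (SE 0.0411, q = 0.000744) in SM2 and -0.17 (SE 0.0411, q = 0.00408) in SM4, and both calls were kept in all 14 alternatives. SMAD2 (ENSG00000175387.16, chromosome 18, 47808957 to 47931146), which is phosphorylated by the same receptors, was at 44.7, 45.2 and 41.7 CPM in the libraries labelled NC, 38.2, 41.7 and 36.01 CPM in those labelled SM2 and 42.02, 44.7 and 41.4 CPM in those labelled SM4. SM2 replicate 2 reached just above the lowest NC library, so the groups overlapped. The log2 fold change of -0.18 (SE 0.0604, q = 0.0347) in SM2 was called, and the call was lost if NC replicate 1 or 2, SM2 replicate 1 or 3 or SM4 replicate 1 was left out (log2 fold change then -0.18 to -0.13). In SM4 it was -0.036 (q = 0.743). SMAD4, the partner that all receptor-activated SMADs share, was at 25.4 ± 1.30, 26.02 ± 2.80 and 26.2 ± 1.05 CPM, with log2 fold changes of 0.033 (q = 0.807) and 0.044 (q = 0.741). SMAD6 (ENSG00000137834.15, chromosome 15, 66702236 to 66782849), an inhibitory SMAD that acts mainly on the BMP branch, was at 84.98, 81.1 and 84.01 CPM in the libraries labelled NC, 86.3, 87.6 and 82.1 CPM in those labelled SM2 and 93.4, 90.9 and 93.6 CPM in those labelled SM4. The SM4 libraries were the 3 highest. It rose by 0.15 (SE 0.0450, q = 0.0189) on the log2 scale in SM4, a call lost if NC replicate 2 or 3 or SM4 replicate 1 or 3 was left out (log2 fold change then 0.13 to 0.16), and its value in SM2 was 0.033 (q = 0.669). Its promoter window was the only one of the 28 with the palindromic motif. SMAD7, the inhibitory SMAD of the TGF-β branch and a classical feedback target, had a low level of 4.23 ± 0.474, 4.03 ± 0.311 and 3.69 ± 0.384 CPM. It was not called, with log2 fold changes of -0.069 (q = 0.775) and -0.20 (q = 0.324) and wide 95% intervals of -0.35 to 0.21 and -0.48 to 0.073.

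PMEPA1 was lower in both comparisons, while the SMURF ubiquitin ligases were called in neither. PMEPA1 (ENSG00000124225.16, chromosome 20, 57648392 to 57711536) is induced by TGF-β and encodes a membrane protein that sequesters SMAD2 and SMAD3. Its level was 142, 148 and 140.1 CPM in the libraries labelled NC, 113, 114 and 109.7 CPM in those labelled SM2 and 106, 109 and 94.9 CPM in those labelled SM4. Every SM2 and SM4 library lay below every NC library, and SM4 replicate 3 was the lowest. The log2 fold change was -0.35 (SE 0.0502, q = 2.58e-05) in SM2 and -0.47 (SE 0.0501, q = 5.61e-07) in SM4, and both calls were kept in all 14 alternatives. NKILA, a non-coding gene at 2.76 to 3.92 CPM in the group means, shares 343 exonic bases with PMEPA1 on the other strand and had log2 fold changes of -0.37 (q = 0.0687) and -0.50 (q = 0.0153). SMURF1 and SMURF2, ligases that mark receptors and SMADs for degradation, were at 54.7 ± 2.55 and 92.04 ± 2.22 CPM in NC. Their log2 fold changes were -0.13 (q = 0.0923) and -0.11 (q = 0.0914) in SM2 and -0.011 (q = 0.919) and -0.10 (q = 0.126) in SM4. SMURF2 was called in SM4 if SM2 replicate 3 was left out (log2 fold change then -0.11). SMURF1 shares 735 exonic bases on the other strand with TRRAP, at 89.1 to 95.9 CPM in the group means and not called.

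Of the nuclear co-repressors, SKIL was called in SM2, and SKI and TGIF1 in neither comparison. SKIL (ENSG00000136603.14, chromosome 3, 170357342 to 170396835), which encodes SnoN and is itself induced by TGF-β, was at 50.4, 48.7 and 48.4 CPM in the libraries labelled NC, 45.8, 42.9 and 39.4 CPM in those labelled SM2 and 47.9, 45.1 and 40.6 CPM in those labelled SM4. All SM2 and SM4 libraries lay below the lowest NC library. Its log2 fold change was -0.20 (SE 0.0637, q = 0.0252) in SM2, a call lost if NC replicate 1 or 2 or SM2 replicate 2 or 3 was left out (log2 fold change then -0.21 to -0.15), and -0.14 (q = 0.125) in SM4, which was called if SM2 replicate 3 was left out (log2 fold change then -0.15) and with the replicate block. SKI, its close relative, was at 74.2 ± 2.99, 72.1 ± 7.25 and 70.5 ± 1.35 CPM, with log2 fold changes of -0.042 (q = 0.693) and -0.073 (q = 0.451). TGIF1, a homeodomain co-repressor, was at 80.7 ± 1.66, 82.2 ± 0.0313 and 85.1 ± 2.78 CPM, with 0.025 (q = 0.758) and 0.075 (q = 0.269).

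The 4 target genes did not move alike. TGFBI (ENSG00000120708.17, chromosome 5, 136028988 to 136063818), a matrix protein induced by TGF-β, was at 1118, 1130.3 and 1122 CPM in the libraries labelled NC, 1079, 1066 and 1070.0 CPM in those labelled SM2 and 974, 1008 and 977 CPM in those labelled SM4. The 3 groups did not overlap, and SM4 was the lowest. TGFBI fell by 0.19 on the log2 scale in SM4 (SE 0.0353, q = 0.000499), kept in all 14 alternatives, and its value in SM2 was -0.068 (q = 0.191). The ID genes encode helix-loop-helix proteins without a DNA-binding region and are direct targets of BMP signalling. ID1 (ENSG00000125968.9, chromosome 20, 31605283 to 31606515) was at 381, 406 and 403 CPM in the libraries labelled NC, 331, 348 and 374 CPM in those labelled SM2 and 388, 400.2 and 389.8 CPM in those labelled SM4. The SM2 libraries were the 3 lowest, and NC and SM4 overlapped. ID1 changed by -0.18 (SE 0.0458, q = 0.00759) on the log2 scale in SM2, kept in all 14 alternatives, and its value in SM4 was -0.015 (q = 0.867). ID2 (ENSG00000115738.10, chromosome 2, 8678845 to 8684461) was at 51.96, 52.2 and 51.5 CPM in the libraries labelled NC, 56.7, 56.8 and 60.5 CPM in those labelled SM2 and 45.6, 53.5 and 48.00 CPM in those labelled SM4. It was highest in the SM2 libraries, with a log2 fold change of 0.16 (SE 0.0569, q = 0.0477), just inside the threshold, and -0.081 (q = 0.37) in SM4. The SM2 call was lost if NC replicate 1, 2 or 3, SM2 replicate 2 or 3 or SM4 replicate 3 was left out (log2 fold change then 0.13 to 0.17) and with DESeq2 size factors in edgeR. ID3 was at 65.4 ± 4.94, 64.8 ± 7.84 and 59.02 ± 1.67 CPM. It was called in neither comparison, with log2 fold changes of -0.014 (q = 0.922) and -0.15 (q = 0.145), and in SM4 it was called if SM2 replicate 3 was left out (log2 fold change then -0.15).

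The comparison of SM4 with SM2, in which NC enters only the pooled spread, asked which members differed between the libraries with these labels. If the libraries labelled SM4 are the control, it sets a knockdown against that control and does not compare knockdowns with each other. It called 10 of the 30 members (33.3%), 3 higher and 7 lower in SM4, where 12.8% of all genes tested were called, 6.04% higher and 6.76% lower. Among genes with a mean CPM at least that of the lowest member, 18.4% were called. The libraries did not overlap for 16 members (all genes, 28.3%). A called difference of at least 0.5 was found in 3 members (all genes, 2.96%) and one of at least 1 in 1 member (all genes, 0.788%), which was NOG. NOG had the largest difference of the members, -1.60 (SE 0.166, q = 8.6e-07) on the log2 scale, and was kept in all 14 alternatives. The differences of TGFB2, -0.34 (q = 0.000237), and TGFBR2, -0.28 (q = 0.000225), were also kept in all of them. The number of members called fell to 3 without SM4 replicate 1 and to 6 without SM4 replicate 3, and was 9 without SM2 replicate 3. For members called in both comparisons with NC, the difference itself was called for INHBA, -0.57 (q = 0.00742), LTBP2, 0.32 (q = 0.0298), and NOG. It was not called for TGFB1, TGFB3, LTBP1, THBS1, SMAD3 and PMEPA1, whose 95% intervals were -0.20 to -0.0054, -0.38 to 0.32, -0.12 to 0.21, 0.028 to 0.25, -0.049 to 0.12 and -0.22 to -0.014. Of the members called in only 1 of the comparisons with NC, TGFB2, BAMBI, TGFBI, TGFBR2, ID1 and ID2 also differed between SM4 and SM2. For BAMBI the difference was -0.56 (q = 0.0107), for TGFBI -0.12 (q = 0.0276), for ID1 0.16 (q = 0.0228) and for ID2 -0.24 (q = 0.00635). SMAD2, SKIL and SMAD6 did not pass this test, with differences of 0.15 (q = 0.126), 0.062 (q = 0.605) and 0.12 (q = 0.0934) and 95% intervals of 0.020 to 0.27, -0.071 to 0.19 and 0.025 to 0.21. TGFBR1, called in neither comparison with NC, was called here at 0.16 (q = 0.0452). Without SM2 replicate 3 the differences of TGFB1 and PMEPA1 were called, at -0.13 and -0.14. That of THBS1 was called if SM2 replicate 1 was left out (log2 fold change then 0.20) and with the replicate block, that of SMAD2 if SM2 replicate 2 was left out (log2 fold change then 0.21), and that of ID3 if SM2 replicate 1 was left out (log2 fold change then -0.21). Without SM2 replicate 3 the differences of THBS1 and SMAD2 were 0.062 and 0.091. The difference of INHBA was not called without SM4 replicate 1 (-0.50), and that of LTBP2 was lost if SM2 replicate 2 or 3 or SM4 replicate 1, 2 or 3 was left out (log2 fold change then 0.23 to 0.34).

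**Figure D3:**
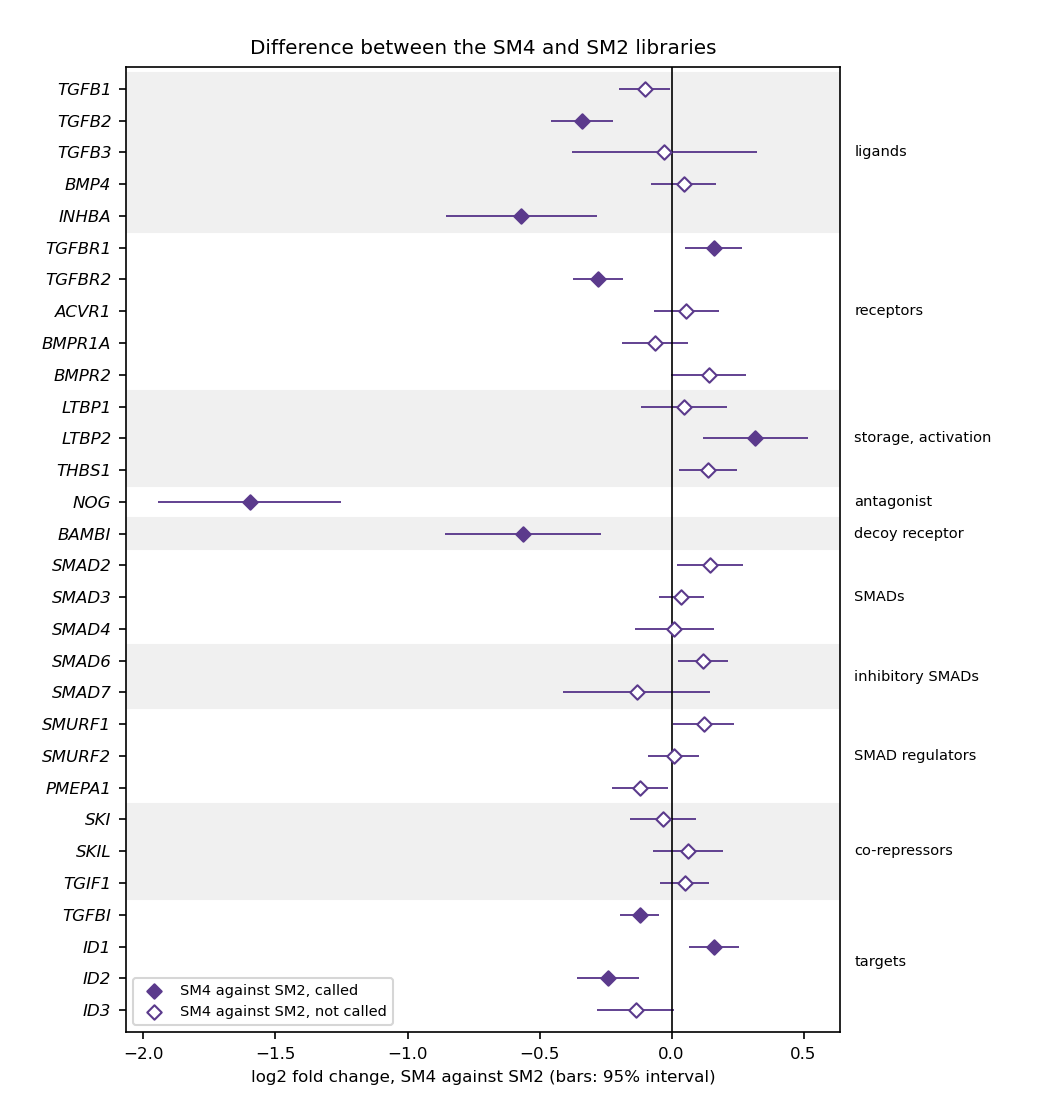
Log2 fold change of each member in SM4 against SM2, ordered by role, with bars for the 95% interval and filled symbols for an adjusted p below 0.05. NOG stands farthest left at -1.60, and the 3 filled symbols right of 0 are TGFBR1, LTBP2 and ID1.

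Levels of different genes were compared per length, in TPM (transcript counts scaled by the length of the merged exons and by the library). ID1 was the highest member at 1382 ± 36.04 TPM (SD, n = 3) in the NC libraries, followed by TGFBI at 625 ± 2.89 TPM and SMAD3 at 263 ± 6.89 TPM. Among the ligands the order in NC was TGFB1 at 132 ± 3.15 TPM, TGFB2 at 53.3 ± 1.06 TPM, BMP4 at 46.2 ± 1.60 TPM, TGFB3 at 2.59 ± 0.168 TPM and INHBA at 1.37 ± 0.251 TPM. In SM4, TGFB2 at 38.7 ± 1.30 TPM stood below BMP4 at 51.6 ± 2.18 TPM, and in SM2 they were at 47.98 ± 4.85 and 48.8 ± 2.72 TPM, within their spread. TGFB2 shares 1371 exonic bases with TGFB2-OT1 on the same strand, and BMP4 shares 506 with a non-coding gene on the other strand. How reads in shared exons were counted is not stated, so the order of TGFB2 and BMP4 is uncertain. In SM2, INHBA at 2.69 ± 0.138 TPM stood above TGFB3 at 1.78 ± 0.0554 TPM, and in SM4 these were at 1.85 ± 0.142 and 1.80 ± 0.406 TPM, within their spread. TGFBR2, at 181 ± 5.53 TPM in NC, was the most abundant receptor, above BMPR2 at 34.2 ± 2.06 TPM and TGFBR1 at 25.9 ± 0.332 TPM. SMAD3 was far above SMAD2, at 5.17 ± 0.224 TPM, and SMAD4, at 5.58 ± 0.330 TPM. The merged exons of SMAD2 span 36426 bases and those of SMAD4 19606 bases, against 10011 bases for SMAD3, which lowers their TPM where long exons are little used. Between the inhibitory SMADs, SMAD6 at 41.9 ± 1.42 TPM was above SMAD7 at 4.61 ± 0.545 TPM.

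**Figure D4:**
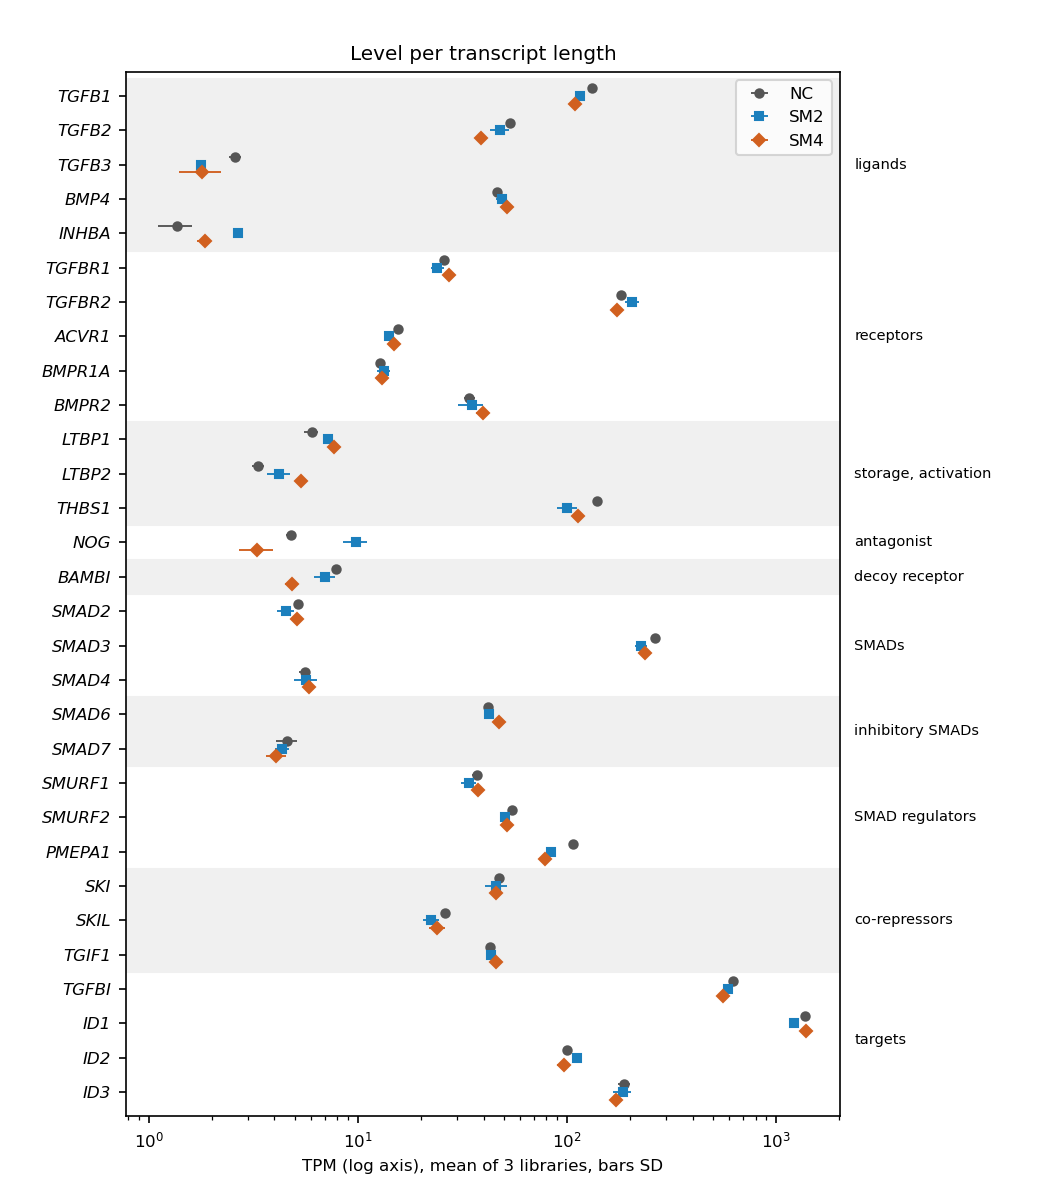
TPM of each member (log axis), ordered by role, as the mean of 3 libraries in NC (circles), SM2 (squares) and SM4 (diamonds) with bars for the SD. ID1 and TGFBI lie highest, SMAD3 lies above SMAD2 and SMAD4, and TGFB3 and INHBA are the lowest ligands.

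Another 41 genes of the pathway, not members of the set, were listed for comparison, and 38 of them were tested. In SM2 against NC 16 were called, 9 higher and 7 lower, and in SM4 against NC 21 were called, 10 higher and 11 lower. These were 42.1% and 55.3% of those tested, against 22.3% and 21.2% of all genes. SM4 against SM2 called 10 of the 38 (26.3%, against 12.8% of all genes), 3 higher and 7 lower. Among genes with a mean CPM at least that of the lowest member, 30.6%, 29.1% and 18.4% were called in these comparisons. Some of the 38 lay below that level, and the list was chosen with earlier results of these data known. Without NC replicate 1 the SM2 count was 9. Of those with the largest called change and a mean of at least 1 CPM, 11 are described. Called higher in both comparisons were INHBB, the beta B subunit of activin, at 1.83 (q = 1.42e-06) in SM2 and 1.37 (q = 4.95e-05) in SM4; GDF15, a stress-induced ligand of the family, at 0.76 (q = 4.59e-07) and 1.23 (q = 3.15e-10); ENG, which encodes the co-receptor endoglin, at 0.64 (q = 0.000615) and 0.68 (q = 0.000286); and ITGB6, an integrin subunit that activates latent TGF-β, at 0.35 (q = 0.00154) and 0.55 (q = 9.72e-06). The activin subunit INHBB was at 0.710 ± 0.161, 2.52 ± 0.233 and 1.83 ± 0.142 CPM in NC, SM2 and SM4, so both activin beta subunit genes, INHBA and INHBB, were called higher in both comparisons with NC. With SM4 as the reference this did not hold, since INHBB was -1.37 (q = 4.95e-05) in NC and 0.46 (q = 0.116) in SM2, and INHBA had opposite signs as given above. GDF15 was at 16.5, 15.3 and 15.7 CPM in the libraries labelled NC, 24.1, 27.6 and 28.6 CPM in those labelled SM2 and 32.9, 38.7 and 39.6 CPM in those labelled SM4, with no overlap between the groups. Called lower in both were the type I receptor gene BMPR1B, at -0.98 (q = 0.0142) and -0.83 (q = 0.0334), and SNAI2, a transcription factor of epithelial-mesenchymal transition, at -0.42 (q = 0.00644) and -0.95 (q = 1.46e-06). The BMPR1B calls, at 1.61 ± 0.409 CPM in NC, were lost in SM2 if NC replicate 1 or SM2 replicate 2 was left out (log2 fold change then -0.76 to -0.73) and in SM4 if NC replicate 1 or 2 or SM4 replicate 2 or 3 was left out (log2 fold change then -0.90 to -0.61). The SNAI2 call in SM2 was lost if NC replicate 2 was left out (log2 fold change then -0.35). Relative to SM4, GDF15 was called lower and SNAI2 higher in both NC and SM2. ENG, ITGB6 and BMPR1B were called in NC but not in SM2, at -0.044 (q = 0.867), -0.20 (q = 0.0701) and -0.15 (q = 0.805) in SM2.

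Of the 11 described, those called lower in SM4 alone were the BMP ligand gene BMP2 and the TGF-β target gene CCN2, together with FST and FBN1. BMP2 was at 3.49, 3.55 and 3.86 CPM in the libraries labelled NC, 4.16, 5.32 and 4.997 CPM in those labelled SM2 and 1.27, 0.901 and 1.35 CPM in those labelled SM4. The SM4 libraries lay far below the other 6, with a log2 fold change of -1.64 (SE 0.167, q = 3.07e-07), against 0.41 (q = 0.0528) in SM2, where it was called if SM2 replicate 1 or SM4 replicate 2 was left out (log2 fold change then 0.41 to 0.50) and with upper-quartile normalization. CCN2, which encodes connective tissue growth factor, was at 18.7, 16.3 and 16.9 CPM in the libraries labelled NC, 16.5, 14.6 and 13.2 CPM in those labelled SM2 and 9.52, 10.5 and 9.34 CPM in those labelled SM4, with -0.82 (q = 7.87e-07) in SM4 and -0.23 (q = 0.0696) in SM2, where it was called if SM2 replicate 1 was left out (log2 fold change then -0.31) and with the replicate block. FST, which encodes the activin antagonist follistatin, had -0.59 (q = 0.00261) in SM4 and -0.048 (q = 0.847) in SM2. FBN1, which encodes the microfibril protein fibrillin 1, had -0.65 (q = 0.0279) and 0.075 (q = 0.844), and its SM4 call was lost if NC replicate 1 or 3 or SM4 replicate 1, 2 or 3 was left out (log2 fold change then -0.68 to -0.52). Relative to the libraries labelled SM4, BMP2, CCN2, FST and FBN1 were called higher in both NC and SM2, CCN2 by 0.82 (q = 7.87e-07) and 0.59 (q = 0.0001). In SM4 against SM2 the differences of BMP2, CCN2, FST and FBN1 were -2.05 (q = 2.89e-08), -0.59 (q = 0.0001), -0.54 (q = 0.00911) and -0.73 (q = 0.0228), all called. SMAD9, a receptor-activated SMAD of the BMP branch, was called higher in SM2 alone, at 0.51 (q = 0.0436), against 0.16 (q = 0.618) in SM4, and its difference between SM4 and SM2 was not called, -0.36 (q = 0.206). The SMAD9 call was lost if NC replicate 1, 2 or 3, SM2 replicate 1, 2 or 3 or SM4 replicate 1 or 3 was left out (log2 fold change then 0.47 to 0.58), with no filter and in DESeq2.

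**Figure D5:**
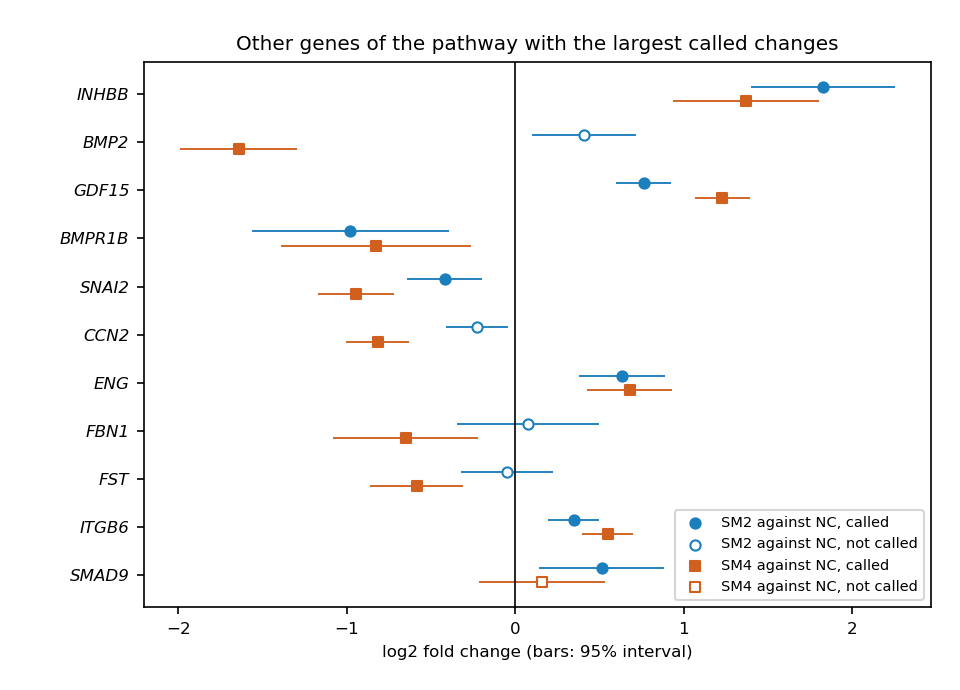
Log2 fold change of 11 pathway genes outside the set in SM2 against NC (circles) and SM4 against NC (squares), with bars for the 95% interval and filled symbols for an adjusted p below 0.05. INHBB, GDF15, ENG and ITGB6 lie right of 0 in both, BMPR1B and SNAI2 left of 0 in both, and BMP2 lies farthest left in SM4 at -1.64.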

How the data were processed

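According to the study's methods and the labels, the authors sequenced polyadenylated RNA on an Illumina NovaSeq, mapped the reads to hg38 by hisat2 and used Subread for counts per gene. The submitters' processing notes also name fastp and featureCounts. Tool versions, the gene annotation and the strand setting are not given in the sources used here, and labels and methods name different library kits and read layouts. The authors deposited raw counts per gene, without normalization, and 0 columns were left unused.

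In R 4.3.3, genes were filtered with filterByExpr of edgeR 4.0.16 (19674 of 60649 kept). TMM-normalized CPM were computed here from the deposited counts, with normalization factors of 0.989 to 1.01. All 9 libraries were fitted in one model of group alone by edgeR's quasi-likelihood F test, adjusted by Benjamini-Hochberg over all genes tested and called below 0.05. Adjusted p-values, written q, are from this test, and SE and 95% intervals are derived from its F statistic. TPM used merged GENCODE v44 exons (GRCh38). Nothing was adjusted over a list alone.

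The members and lists were chosen with earlier results of these data known. Named were all 30 members, METTL3, and of the other pathway genes the 12 with the largest called change against NC and a mean of at least 1 CPM, of which 1 is not reported here. Alternatives were DESeq2 1.42.0 (the study's tool), DESeq2 size factors or upper-quartile normalization in edgeR, no filter, the replicate number as a block, and leaving out each library, 14 in all. For METTL3 and the other pathway genes these were added after seeing the data. Directions with SM4 as the reference are the same tests with the sign turned, chosen after seeing METTL3. The test was checked for SM2 against NC on simulated counts of 19674 genes, with the same spread for every gene, unlike real counts. It recovered 35 of 50 changes of 1.25-fold, 44 of 50 of 1.5-fold and 50 of 50 of 2-fold, and called 16 unchanged genes. The counts carry no molecular identifiers, so depth gives the counting error only.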

Additional observations from a re-analysis of the deposited data

Results flagged for a closer look

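For 10 members the levels in the libraries labelled SM2 and SM4 differed by the direct test of SM4 against SM2 (edgeR, with q the p adjusted over all genes tested). Lower in SM4 than in SM2 were NOG by a log2 fold change of -1.60 (q = 8.6e-07), TGFBR2 by -0.28 (q = 0.000225), TGFB2 by -0.34 (q = 0.000237), ID2 by -0.24 (q = 0.00635), INHBA by -0.57 (q = 0.00742), BAMBI by -0.56 (q = 0.0107) and TGFBI by -0.12 (q = 0.0276). Higher in SM4 were ID1 by 0.16 (q = 0.0228), LTBP2 by 0.32 (q = 0.0298) and TGFBR1 by 0.16 (q = 0.0452). NOG was higher than NC in every SM2 library and lower than NC in every SM4 library, the only member called in opposite directions against NC. METTL3 went against the label of SM4, and relative to the SM4 libraries NOG was higher in both NC, by 0.56 (q = 0.0233), and SM2, by 1.60 (q = 8.6e-07). With the same reference, TGFB2, BAMBI and TGFBI were called higher and LTBP2 lower in both NC and SM2. INHBA was then lower in NC and higher in SM2, and TGFBR2, TGFBR1, ID1 and ID2 were called in SM2 but not in NC. Of the 10 calls in SM4 against SM2, 7 were lost without at least 1 library. The call of TGFBR1 was lost if NC replicate 1, 2 or 3, SM2 replicate 2 or 3 or SM4 replicate 1, 2 or 3 was left out (log2 fold change then 0.11 to 0.18), that of TGFBI if NC replicate 1, SM2 replicate 1 or 2 or SM4 replicate 1 or 3 was left out (log2 fold change then -0.12 to -0.11), that of ID1 if SM2 replicate 1 or 2 or SM4 replicate 1, 2 or 3 was left out (log2 fold change then 0.12 to 0.17), that of LTBP2 if SM2 replicate 2 or 3 or SM4 replicate 1, 2 or 3 was left out (log2 fold change then 0.23 to 0.34), that of BAMBI if SM2 replicate 3 or SM4 replicate 1 was left out (log2 fold change then -0.50 to -0.45), that of INHBA if SM4 replicate 1 was left out (log2 fold change then -0.50) and that of ID2 if SM4 replicate 1 was left out (log2 fold change then -0.19). Groups of 3 libraries were too small to look for outlying values of single genes. Over the genes tested, SM2 replicate 3 stood apart from its group, as given above.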

How the results depend on the processing

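Of 37 member calls over the 3 comparisons, 20 were kept in all 14 alternatives, 17 were lost in at least 1 and 0 changed direction. Of 53 member values not called, 12 were called in at least 1 alternative and 14 changed sign in at least 1. Leaving out 1 library gave 9 to 14 members called in SM2 against NC, 10 to 18 in SM4 against NC and 3 to 10 in SM4 against SM2, and the other alternatives gave 13 to 15, 12 to 15 and 8 to 11. Over all genes, leaving out 1 library gave 3209 to 4742, 2934 to 5418 and 1574 to 2838 calls, and the other pathway genes gave 9 to 15, 17 to 23 and 8 to 14. Fewer libraries can lower the number of calls. Over all genes, however, some of these fits gave more calls than the 4389, 4173 and 2518 of the main fit. Leaving out SM2 replicate 3 raised the calls in SM4 against NC, and the cause was not tested. METTL3 kept its side of the threshold and its direction in all 14 alternatives. Single values of the other pathway genes in SM4 against SM2 were not recomputed under the alternatives.

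The replicate number was tried as a block. Libraries with the same number in different groups did not deviate together (r of -0.053 to 0.0453, against -0.0651 to 0.0923 for different numbers), so that they share only a number. With the replicate block 15, 15 and 11 members and 4694, 4484 and 2815 genes were called in the 3 comparisons in the same order, and the other pathway genes called were 17, 22 and 15.

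With upper-quartile normalization small values near 0 changed sign, ID3 in SM2 against NC to 0.00048, and SMURF1 and ID1 in SM4 against NC to 0.0066 and 0.0028. Leaving out 1 library moved these uncalled log2 fold changes across 0. In SM2 against NC the ranges were -0.024 to 0.14 for BMPR2, -0.057 to 0.10 for SMAD4, -0.16 to 0.0062 for SMAD7, -0.089 to 0.043 for SKI, -0.11 to 0.064 for ID3, -0.061 to 0.25 for FBN1 and -0.12 to 0.087 for FST. In SM4 against NC the ranges were -0.012 to 0.049 for BMPR1A, -0.041 to 0.026 for SMURF1 and -0.043 to 0.00036 for ID1. In SM4 against SM2 the ranges were -0.21 to 0.080 for TGFB3, -0.0022 to 0.087 for BMP4, -0.0062 to 0.059 for SMAD3, -0.062 to 0.10 for SMAD4, -0.025 to 0.032 for SMURF2 and -0.12 to 0.016 for SKI. At 71 counts in its lowest library, NOG had the lowest count of any member.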
